A study of Mus musculus with 4 samples.

Results

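Mature miRNAs of epithelial and endocrine cells outside the miR-200 family make up 6 of the 1900 names in the count table: mmu-miR-375-3p, mmu-miR-375-5p, mmu-miR-184-3p, mmu-miR-184-5p, mmu-miR-203-3p and mmu-miR-205-5p, written below without the species prefix. All were chosen because the miRNAs miR-375, miR-184, miR-203 and miR-205 are known from epithelial or endocrine cells. MiR-375-3p and miR-184-3p were also chosen for their lower CPM, scaled counts, in the GFP-AGO2 group, so their difference between the groups is given as a description with no test. The data were 4 small RNA libraries made after immunoprecipitation of AGO2, an Argonaute protein that carries miRNAs and guides them to target RNAs, from olfactory bulb of C57BL/6 mice. GFP-AGO2 libraries (n = 2) are from mice injected with the viral vector LV.PGK.GFP-AGO2, whose name includes PGK, a promoter active in many cell types, whereas Control libraries (n = 2) are from mice with a sham injection and no vector. Bulbs were taken 8 weeks after injection in both groups. The series concerns newborn neurons of the bulb, but the labelled source is whole bulb tissue, and the sources used here do not name the antibody. Whether replicate libraries are from separate mice is not labelled, and p-values then measure library spread, possibly technical spread alone.

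A miRNA pairs with target RNAs mainly through its seed, bases 2 to 8 from the 5′ end, and represses them from within an Argonaute protein. Of the arms cut from a hairpin, the guide arm is loaded into Argonaute and the other arm is mostly degraded. MiR-375 is abundant in pancreatic islets and the pituitary, where it restrains hormone secretion. MiR-184 is best known from the lens and cornea and has also been studied in adult neural stem cells. MiR-203 acts in differentiating epidermis, where it represses the basal-cell factor p63, and miR-205 marks basal epithelium and, like the miR-200 family, represses the transcription factors Zeb1 and Zeb2.

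The mature sequences are shown because the seeds set which RNAs a miRNA can pair with. They are from RefSeq (GRCm38.p6), written 5′ to 3′ with the seed in capitals. RefSeq's table gave 5 of the 6 names and not miR-375-3p.
miR-184-3p: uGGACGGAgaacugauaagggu
miR-203-3p: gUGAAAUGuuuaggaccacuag
miR-205-5p: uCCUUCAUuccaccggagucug
miR-375-5p: gCGACGAGccccucgcacaaac
miR-184-5p: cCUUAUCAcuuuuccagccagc
No seed was shared between these 5 sequences, and none of the 1603 names of the count table with a RefSeq sequence shared a seed with any of them. Each sequence is 22 bases long, with a GC content from 40.9% in miR-203-3p to 68.2% in miR-375-5p.

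The members lie at 4 separate places in the genome (mm10), each with 1 position in the count table and no overlap with another name there. MiR-375-3p is on the minus strand of chromosome 1 at 74900661 to 74900682, in an intergenic stretch 7518 bases from Cryba2 and 1389 bases from Cfap65, and miR-375-5p is beside it at 74900696 to 74900717. MiR-205-5p is on the same strand of chromosome 1, at 193507503 to 193507524, in an exon of the long non-coding RNA gene 4631405K08Rik. MiR-184-3p (89802263 to 89802284) and miR-184-5p (89802302 to 89802323) are intergenic on the minus strand of chromosome 9, between Ankrd34c and Rasgrf1. MiR-203-3p is intergenic on the plus strand of chromosome 12, at 112130927 to 112130948, 3368 bases from Aspg. RefSeq places miR-203b-5p on the opposite strand there, at 112130927 to 112130946. The table has no miR-203b name and the counting command has no strand option, so reads from the opposite strand cannot be told apart from miR-203-3p.

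Totals of miRNA counts ranged from 673916 to 1006861 per Control library and from 1858354 to 2809758 per GFP-AGO2 library, and each library detected 714 to 843 names. Replicates of a group differed by more than sampling noise and were kept as separate libraries. Markers of neurons took 3.991% and 4.013% of the counts in Control and 3.999% and 3.818% in GFP-AGO2. This sum hides changes in both directions among its 13 names. By edgeR's test, described below, miR-9-5p (log2 fold change 1.14) and miR-9-3p (1.07) were called higher in GFP-AGO2. MiR-138-5p (-0.82) and miR-127-3p (-0.58), the most abundant of the list, were called lower. The 4 oligodendrocyte markers of the list overlap other names in the table and were listed at 0 in every library, so these zeros are not read as absence. CPM below uses TMM-scaled library totals.

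Of the 6 members, 4 were detected in every library and 2 in none. MiR-375-5p and miR-184-5p had 0 counts in all 4 libraries, which allows a share of up to 0.000445% of the counts in the shallowest library and 0.000107% in the deepest. These 5p arms were thus not detectable at this depth, while their 3p partners had 3202 and 778 counts over the 4 libraries. The other arms of the remaining hairpins were also scarce: miR-205-3p had 0 counts, and miR-203-5p had 4 counts in GFP-AGO2 replicate 1 and 0 elsewhere. With these zeros, no ratio of the arms could be formed.

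Together the members took 0.176% of the counts in Control replicate 1, 0.171% in Control replicate 3, 0.0307% in GFP-AGO2 replicate 1 and 0.0570% in GFP-AGO2 replicate 3. Mean shares were 0.173% ± 0.00291 (Control) and 0.0438% ± 0.0186 (GFP-AGO2), as SD with n = 2 each. The groups did not overlap, and the GFP-AGO2 libraries lay further apart than the Control libraries. MiR-375-3p supplied 71.4% and 73.5% of the members' counts in Control and 54.9% and 58.3% in GFP-AGO2. Like miR-184-3p, it was chosen for lower CPM in GFP-AGO2. The lower share of the members together, without overlap of the groups, thus largely follows from the choice.

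MiR-375-3p, the guide arm of the islet miRNA, was the most abundant member in every library. In Control it had 1311 CPM in replicate 1 (1262 counts) and 1400 CPM in replicate 3 (849 counts). Among GFP-AGO2 libraries it had 159 CPM in replicate 1 (474 counts) and 302 CPM in replicate 3 (617 counts). Both GFP-AGO2 libraries were far below both Control libraries, and even the raw counts were lower in the deeper GFP-AGO2 libraries. Control averaged 1355 ± 63.4 CPM and GFP-AGO2 231 ± 101 CPM (SD, n = 2 each), so that GFP-AGO2 held 17.0% of the Control level (log2 fold change -2.56, SE 0.33). By counts it stood at place 69 of 804 and 65 of 714 detected names in the Control libraries and at 168 of 843 and 136 of 828 in the GFP-AGO2 libraries. In the order of mean Control CPM its neighbours were miR-370-3p (1373 ± 67.0 CPM) and miR-101a-3p (1333 ± 177 CPM), neither of which differed from it beyond the spread of the Control libraries. In immunoprecipitates of whole tissue, fewer cells of a type and less of the miRNA per cell cannot be told apart. Neither can be told apart from a different capture of AGO2, since only GFP-AGO2 mice carried the vector.

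MiR-184-3p, the guide arm of the lens and cornea miRNA, followed with 293 CPM (282 counts) in Control replicate 1 and 327 CPM (198 counts) in Control replicate 3. The GFP-AGO2 libraries had 45.7 CPM (136 counts) in replicate 1 and 79.4 CPM (162 counts) in replicate 3. The groups did not overlap, with means of 310 ± 23.8 and 62.6 ± 23.8 CPM (SD, n = 2 each), 20.2% of the Control level (log2 fold change -2.31, SE 0.31). In the order of Control levels it stood beside miR-8114 (313 ± 178 CPM) and miR-152-3p (308 ± 5.72 CPM), again within the spread.

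**Figure D1:**
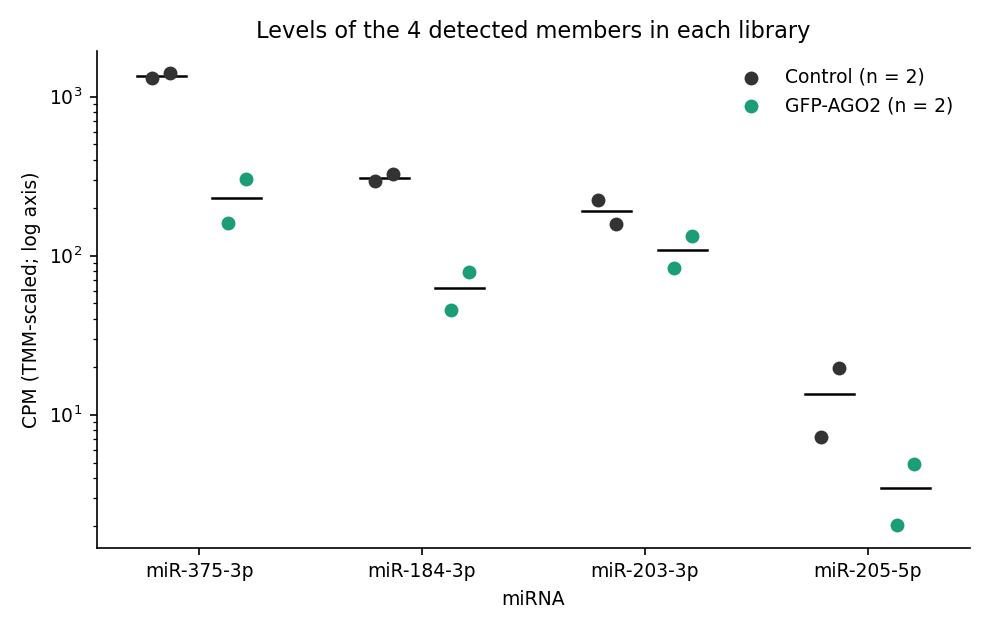
CPM (TMM-scaled, log axis) of the 4 detected members in each library, with points for libraries and bars for the group mean (n = 2). MiR-375-3p is highest in both groups, the gap between groups is widest for miR-375-3p (1355 against 231 CPM) and miR-184-3p (310 against 62.6 CPM), and that of miR-203-3p is narrow (191 against 108 CPM).

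MiR-203-3p, the miRNA of differentiating epidermis, was not chosen for its own change. Control replicate 1 had 224 CPM (216 counts) and Control replicate 3 had 158 CPM (96 counts). GFP-AGO2 replicate 1 had 83.04 CPM (247 counts) and GFP-AGO2 replicate 3 had 132 CPM (270 counts). The groups did not overlap on this scale, but GFP-AGO2 replicate 3 lay close to Control replicate 3. Without TMM factors, dividing by total counts alone, the values of these libraries were 145 CPM (exact 95% interval 129 to 164) and 142 CPM (115 to 174), and the groups overlapped. The means were 191 ± 46.7 and 108 ± 34.9 CPM (SD, n = 2 each), with a log2 fold change of -0.84 (SE 0.31). This did not pass edgeR's quasi-likelihood test (adjusted p = 0.0945, unadjusted p = 0.0416). It passed without GFP-AGO2 replicate 3 (-1.21, adjusted p = 0.00242), a fit that takes its spread from the Control libraries alone, and with no scaling it had the other sign, at 0.73 (adjusted p = 0.233).

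MiR-205-5p, the basal epithelial miRNA, was at the edge of detection, with 7 counts in Control replicate 1, 12 in Control replicate 3, 6 in GFP-AGO2 replicate 1 and 10 in GFP-AGO2 replicate 3. The CPM values in the same order were 7.27, 19.8, 2.02 and 4.90, with group means of 13.5 ± 8.85 and 3.46 ± 2.04 CPM (SD, n = 2 each). The groups did not overlap, but exact 95% intervals did for CPM of total counts, at 2.80 to 14.3 in Control replicate 1 and 2.58 to 9.90 in GFP-AGO2 replicate 3. The intervals cover counting error alone. MiR-205-5p did not reach the filter on low counts and is not among the tested miRNAs. Of those, 35.2% had both GFP-AGO2 libraries below both Control libraries. In the fit with no filter its log2 fold change was -1.70 (SE 0.87, edgeR adjusted p = 0.196). The log2 ratio of mean CPM was -1.97, and it was -0.25 with no scaling, -1.07 without Control replicate 3 and -2.75 without GFP-AGO2 replicate 3.

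In Control the order of levels was miR-375-3p, miR-184-3p, miR-203-3p and miR-205-5p. The Control libraries of adjacent members in this order did not overlap. In GFP-AGO2 the order of miR-184-3p and miR-203-3p was exchanged, which largely follows from choosing miR-184-3p, and not miR-203-3p, for lower CPM there. Both GFP-AGO2 libraries of miR-203-3p (83.04 and 132 CPM) lay above those of miR-184-3p (45.7 and 79.4 CPM), by a narrow margin across replicates. Within a library there were 1.82 (replicate 1) and 1.67 (replicate 3) counts of miR-203-3p for each count of miR-184-3p. Read counts of different miRNAs also reflect how well each is ligated, so the order is one of read counts.

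The whole-table test sets the background for these values. Of 457 miRNAs tested with edgeR, 17.1% were lower in GFP-AGO2 at an adjusted p under 0.05 and 17.3% were higher, or 78 and 79 miRNAs. Without Control replicate 1 these counts were 43 and 47, and 49 were higher without Control replicate 3. With no scaling between libraries, 20 were lower and 264 higher, and the median of all miRNAs moved up by 1.68 on the log2 scale. Of the 6 members, 3 passed the filter on low counts, miR-375-3p, miR-184-3p and miR-203-3p, and the median log2 fold change over all tested miRNAs was -0.01. The median of these 3 is the value of miR-184-3p itself and follows from the choice of members. All 3 had both GFP-AGO2 libraries below both Control libraries, as did 35.2% of the tested miRNAs; for miR-375-3p and miR-184-3p this too follows from how they were chosen. Larger falls than that of miR-375-3p were fitted for 37 of the 457 miRNAs, than that of miR-184-3p for 43 and than that of miR-203-3p for 122. Relative to the median of all miRNAs, miR-375-3p had -2.54 and miR-184-3p -2.30 with TMM scaling, and -2.62 and -2.35 with no scaling. Subtracting the median takes out most of the shift between scalings, so this likeness follows from the calculation.

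**Figure D2:**
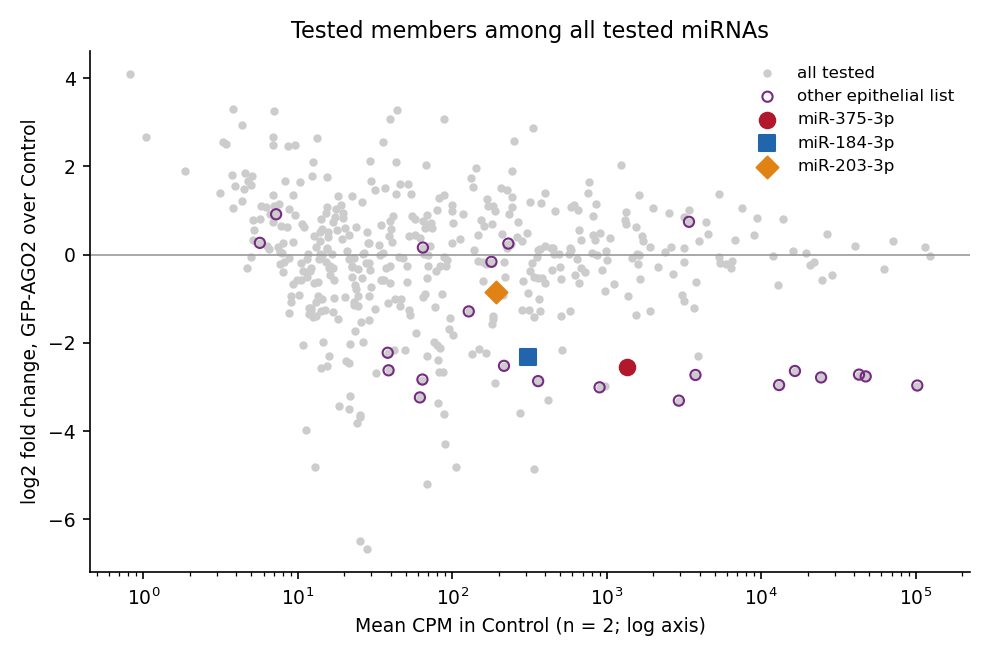
Log2 fold change of GFP-AGO2 over Control against mean Control CPM (log axis, n = 2 per group) for the 457 tested miRNAs, with the 3 tested members and the other epithelial miRNAs marked. MiR-375-3p (-2.56) and miR-184-3p (-2.31) lie near the band of the miR-200 and miR-183 miRNAs, and miR-203-3p (-0.84) lies nearer to 0.

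Ratios of counts within a library need no scaling between libraries and show how the members moved against each other. MiR-375-3p had 4.48 (replicate 1) and 4.29 (replicate 3) counts for each count of miR-184-3p in Control, against 3.49 and 3.81 in GFP-AGO2. This ratio stayed within a narrow range over all 4 libraries although the groups did not overlap. Against miR-203-3p, miR-375-3p had 5.84 and 8.84 counts in Control and 1.92 and 2.29 in GFP-AGO2. For each count of miR-184-3p there were 0.766 and 0.485 counts of miR-203-3p in Control and 1.82 and 1.67 in GFP-AGO2. MiR-375-3p and miR-184-3p were chosen for lower CPM in GFP-AGO2 and miR-203-3p was not. The likeness of the chosen miRNAs and their shift against miR-203-3p thus largely follow from the choice.

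The miR-200 family, 9 names of epithelial cells that repress Zeb1 and Zeb2, served as the nearest comparison. Per 1000 counts of this family, miR-375-3p had 10.69 and 10.96 counts in Control and 12.6 and 12.3 in GFP-AGO2. MiR-184-3p had 2.39 and 2.56 in Control and 3.61 and 3.24 in GFP-AGO2. MiR-203-3p had 1.83 and 1.24 in Control and 6.56 and 5.39 in GFP-AGO2. All 3 ratios were higher in both GFP-AGO2 libraries, slightly for miR-375-3p and several-fold for miR-203-3p. The tested names of the family itself had a median log2 fold change of -2.745. Of 457 tested miRNAs, 37 had a lower log2 fold change than miR-375-3p. The median log2 fold change over all tested miRNAs was -0.01, so a higher ratio to this family was common and is not particular to the members. With 2 libraries against 2, the smallest p of an exact permutation test is 0.333, and none is given, since the members were chosen from the same contrast. Against the 6 names of the miR-183 cluster, miRNAs of sensory cells, the ratios per 1000 counts were 10.3 and 10.6 in Control and 13.3 and 13.8 in GFP-AGO2 for miR-375-3p.

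**Figure D3:**
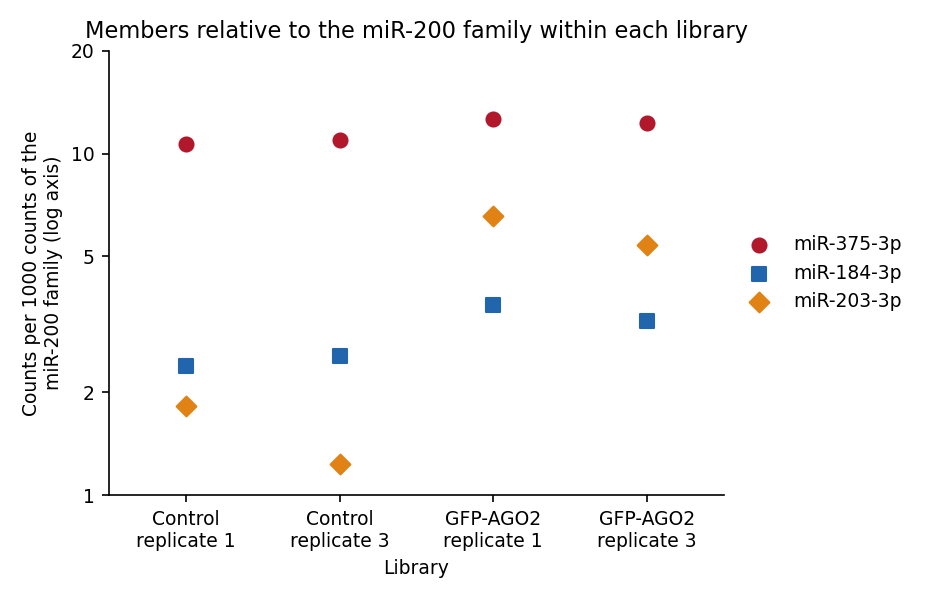
Counts of 3 members per 1000 counts of the miR-200 family in each library (log axis), 1 point per library. MiR-375-3p stays between 10.7 and 12.6, miR-184-3p between 2.39 and 3.61, and miR-203-3p is at 1.24 to 1.83 in Control and 5.39 to 6.56 in GFP-AGO2.

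MiR-124-3p, the classic neuronal miRNA, differed little between the groups (log2 fold change -0.15). Ratios of miR-375-3p and miR-184-3p to it thus restate the lower CPM for which they were chosen. Per 1000 counts of miR-124-3p, miR-375-3p had 234 and 193 counts in Control and 25.3 and 57.4 in GFP-AGO2. MiR-184-3p had 52.2 and 44.9 in Control and 7.25 and 15.1 in GFP-AGO2. MiR-203-3p had 40.0 and 21.8 in Control and 13.2 and 25.1 in GFP-AGO2, where the groups overlapped.

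The names whose pattern over the 4 libraries was most like that of miR-375-3p were found by the root mean square difference of log2 CPM, each name centred on its own mean, among 275 names with a mean of at least 50 counts. They were miR-200b-3p (0.09), miR-200c-3p (0.11), miR-200a-3p (0.11), miR-22-5p (0.12) and miR-182-5p (0.13), against a median of 1.43 over the names compared. MiR-184-3p came seventh at 0.15 and miR-203-3p was at place 48, at 0.92. For miR-184-3p the nearest names were miR-22-5p (0.15), miR-375-3p (0.15), miR-5126 (0.16), miR-455-5p (0.19) and miR-28a-5p (0.20). With 4 libraries in 2 groups, likeness mainly reflects a similar difference between the groups and between the GFP-AGO2 libraries.

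The libraries of the GFP-AGO2 group differed from each other in these miRNAs, a comparison within a group that the choice of members did not use. GFP-AGO2 replicate 3 had 1.90 times the CPM of replicate 1 for miR-375-3p, 1.74 times for miR-184-3p, 1.59 times for miR-203-3p and 2.43 times for miR-205-5p. The median over tested miRNAs with a count in every library was 1.06, over the tested miR-200 family 1.81 and over the tested miR-183 cluster 2.02. For miR-375-3p the exact 95% intervals of CPM by total counts, 154 to 185 in replicate 1 and 306 to 359 in replicate 3, were apart. In Control the same ratio was 1.07 for miR-375-3p, 1.12 for miR-184-3p, 0.706 for miR-203-3p and 2.72 for miR-205-5p, whose libraries thus lay at least as far apart in Control as in GFP-AGO2. With 1 library on each side, these ratios describe the libraries and have no test. MiR-375-3p, miR-184-3p and miR-203-3p were thus higher in the GFP-AGO2 library where the miR-200 family was also higher. In Control miR-203-3p was lower in replicate 3. For miR-205-5p the exact 95% intervals by total counts overlapped, at 0.784 to 4.65 in GFP-AGO2 replicate 1 and 2.58 to 9.90 in replicate 3. With a median of 1.06 over tested miRNAs, a higher value in GFP-AGO2 replicate 3 was itself common.

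Part of a list of vascular, blood and immune cell markers was also lower in GFP-AGO2. Its miR-155-5p was not, with 8.80 ± 0.778 CPM in Control and 8.48 ± 5.34 CPM in GFP-AGO2 (SD, n = 2 each). Of 25 names in that list, 19 are in the table. Of these, 4 were listed at 0 in all libraries, among them the endothelial miR-126a-3p and the blood-cell miR-142-3p. Names that overlap others can be listed at 0 in this table, so these zeros are not read as absence. The list took 0.499% (replicate 1) and 0.369% (replicate 3) of the counts in Control, against 0.0372% and 0.172% in GFP-AGO2, and its tested members had a median ratio of 2.82 between GFP-AGO2 replicates 3 and 1. By edgeR's test 4 of its 8 tested names fell, against 17.1% of all miRNAs falling, with a median log2 fold change of -2.34. None rose by edgeR or DESeq2, with 0 rises at an unadjusted p under 0.05 in either. Without either Control replicate 1 or Control replicate 3, 1 of the 8 was called lower, and with no scaling the edgeR count was 0, with 1 at an unadjusted p under 0.05. The part of these cells in the members' values was not tested.

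**Figure D4:**
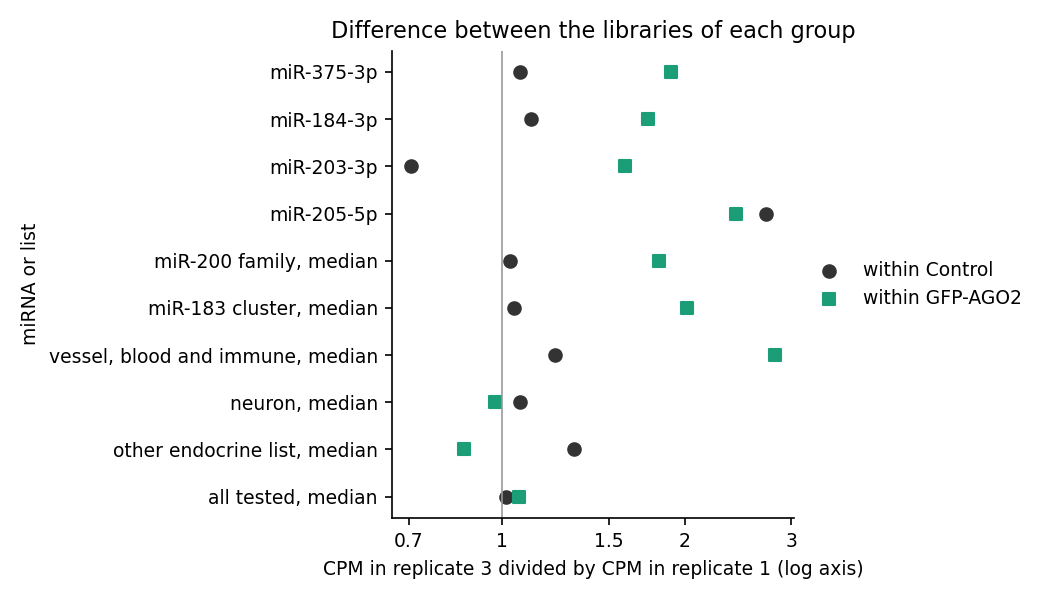
CPM in replicate 3 divided by CPM in replicate 1 (log axis) within Control (circles) and within GFP-AGO2 (squares), for the 4 detected members and as medians over the tested names of each list. The members lie at 1.59 to 2.43 within GFP-AGO2, near the miR-183 cluster (2.02) and the miR-200 family (1.81). The list of vessel, blood and immune markers lies higher, at 2.82, and the median of all tested is 1.06. Within Control miR-205-5p also lies high, at 2.72.

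Other epithelial miRNAs included names that fell and a name that rose. A list of 39 further names of epithelial, secretory and ciliated cells also holds the miR-183 cluster of sensory cells. Of its 22 tested names 15 fell, against 17.1% of all tested miRNAs, and 13 of the 15 belong to the miR-183 cluster or the miR-200 family. This list was chosen with earlier results of these data known. The most abundant of these were miR-183-5p (log2 fold change -2.97, SE 0.30, edgeR adjusted p = 0.00353), miR-200a-3p (-2.76, SE 0.32, adjusted p = 0.00519) and miR-200b-3p (-2.72, SE 0.33, adjusted p = 0.00527). Among the 24 names outside those groups, 9 were tested, of which 2 fell and 1 rose, near the 17.1% and 17.3% of all miRNAs, with a median log2 fold change of 0.16 against -0.01 over all tested. The names that fell were miR-31-5p of squamous epithelium, from 38.2 ± 12.1 to 8.26 ± 2.18 CPM (SD, n = 2; adjusted p = 0.0180), and miR-224-5p, from 216 ± 37.7 to 38.2 ± 22.2 CPM (adjusted p = 0.0110). MiR-204-5p, abundant in the choroid plexus and the retinal pigment epithelium, rose from 3409 ± 161 to 5705 ± 466 CPM (adjusted p = 0.0118), a log2 change of 0.74 with SE 0.14. The gut and liver miRNA miR-192-5p had 231 ± 39.4 and 275 ± 25.1 CPM (adjusted p = 0.370), and miR-34c-5p of multiciliated cells 128 ± 40.9 and 53.2 ± 34.3 CPM (adjusted p = 0.119). Leaving out Control replicate 1 ended the calls of miR-31-5p (-1.80, adjusted p = 0.106) and miR-204-5p (0.84, adjusted p = 0.0885), and that of miR-204-5p also ended when Control replicate 3 was left out (0.66, adjusted p = 0.136). With no scaling 5 of the 9 were called higher, and miR-31-5p (-0.65, adjusted p = 0.447), miR-224-5p (-0.98, adjusted p = 0.115), miR-200a-3p (-1.17, adjusted p = 0.0587) and miR-200b-3p (-1.13, adjusted p = 0.0685) were not called. MiR-34c-5p was called lower without GFP-AGO2 replicate 3 (-2.15, adjusted p = 1.94e-06), with the spread taken from the Control libraries alone, and with no filter (-1.06, adjusted p = 0.0085).

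Other miRNAs of endocrine glands, the pancreas and the liver were 15 further names, of which 5 were tested and 9 had no count in any library. Of those tested, 0 fell and 1 rose by edgeR and by DESeq2, with 0 lower at an unadjusted p under 0.05 in either, counts near those that 17.1% and 17.3% of 5 names would give. The median log2 fold change was -0.19; with no scaling 4 of the 5 were called higher. MiR-7a-5p, an islet and pituitary miRNA that neurons of the bulb also express and whose counts come from more than 1 position, had means of 20586 ± 3406 (Control) and 17504 ± 1819 CPM (GFP-AGO2), a log2 change of -0.23 with an adjusted p = 0.326. MiR-7b-5p had 5387 ± 1033 and 4710 ± 1092 CPM (adjusted p = 0.550), and the liver miRNA miR-122-5p 68.3 ± 3.29 and 47.1 ± 6.202 CPM (adjusted p = 0.174). MiR-7a-2-3p, which had 1 and 4 counts in the Control libraries, rose from 3.82 ± 3.93 to 33.4 ± 13.2 CPM (log2 fold change 3.29, adjusted p = 0.0292). Without Control replicate 1 its log2 fold change was 2.40 and no longer called (adjusted p = 0.0939). Without GFP-AGO2 replicate 1, miR-7a-5p (-0.34, adjusted p = 0.0224) and miR-7b-5p (-0.45, adjusted p = 0.0181) were called lower, in a fit whose spread comes from the Control libraries alone. Per 1000 counts of miR-7a-5p, miR-375-3p had 72.1 and 60.9 counts in Control and 8.48 and 18.7 in GFP-AGO2. With little change in miR-7a-5p, this ratio restates the lower CPM for which miR-375-3p was chosen.

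**Figure D5:**
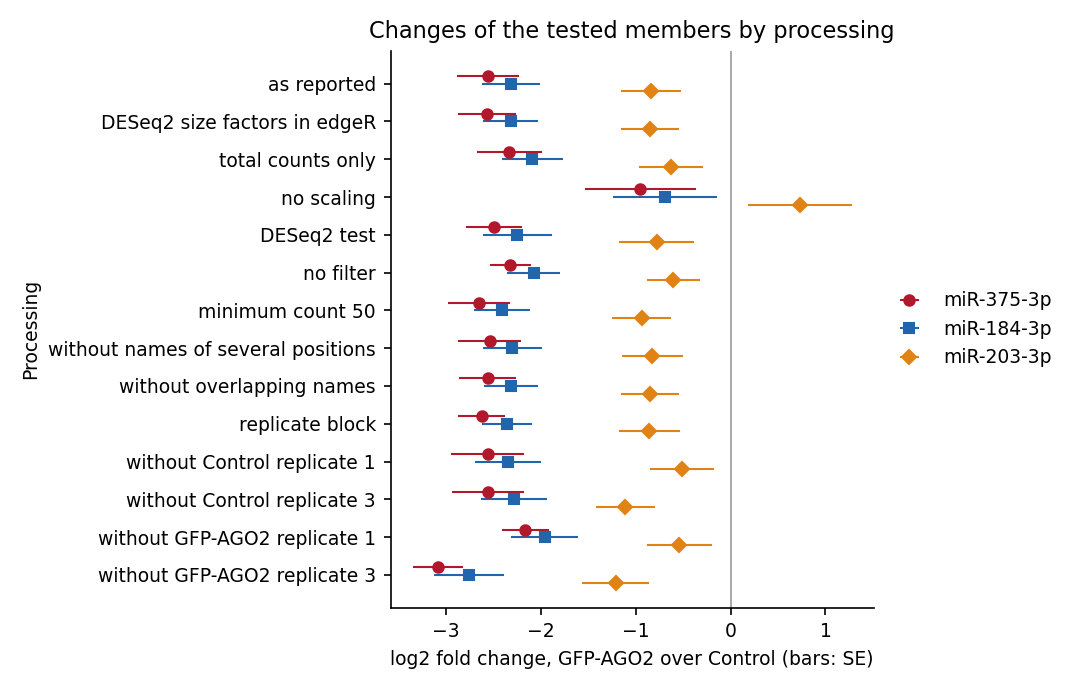
Log2 fold change of GFP-AGO2 over Control, with its SE, for the 3 tested members under the processing as reported and 13 alternatives. MiR-375-3p and miR-184-3p lie below 0 in all of them, at -3.09 to -0.95 and -2.76 to -0.69, and miR-203-3p in all but the fit with no scaling (0.73). The sign for miR-375-3p and miR-184-3p largely follows from their choice for lower CPM in GFP-AGO2.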

How the data were processed

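The authors deposited raw counts for each mature miRNA, made with featureCounts 1.4.6-p1 on primary alignments over a miRBase annotation for mm10, per the file headers. Cutadapt and STAR were used, per the submitters' processing notes, with versions not given in the sources used here. Columns were matched to samples by their titles, and 0 columns were left unmatched. The members and the miRNA lists were chosen with earlier results of these data known.

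The whole table was fitted with edgeR 4.0.16 in R 4.3.3 (quasi-likelihood F test, two-sided, TMM, filterByExpr with a minimum count of 10), which kept 457 of 1900 names and at least 99.88% of the counts of each library. Benjamini-Hochberg adjustment ran over every tested name, with calls at 0.05. CPM is the count per 1000000 counts of the TMM-scaled library. An SE is the absolute log2 fold change divided by the square root of F. Exact 95% intervals are Clopper-Pearson, and the limit of a count of 0 is 3 counts of the total. PCR copies are counted as reads, so these cover counting error only. The script was tested on simulated data. DESeq2 1.42.0 was an alternative. Gene positions are from GENCODE M21.

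The names described were the members and the other arms of their hairpins, the 5 names nearest in pattern to miR-375-3p and to miR-184-3p, their neighbours in Control level, and the 3 most abundant tested names of the epithelial and endocrine lists. MiR-31-5p, miR-224-5p, miR-204-5p, miR-192-5p, miR-34c-5p and miR-7a-2-3p were added after their values were seen.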

Additional observations from a re-analysis of the deposited data

How the results depend on the processing

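Over 13 alternatives, miR-375-3p and miR-184-3p lay below 0 in every fit, a sign that their choice for lower CPM in GFP-AGO2 largely fixed. MiR-203-3p lay below 0 in 12, and the exception was no scaling, at 0.73. With no scaling the calls over all miRNAs were 264 higher and 20 lower. Leaving out a replicate gave 47 to 94 higher and 43 to 106 lower. The difference in the members' share, -0.130 percentage points, was -0.181 without miR-200 and miR-183 counts in the denominator, -0.205 without let-7 5p arms, and -0.143 to -0.117 leaving out a replicate. Its sign too largely follows from the choice of members. The replicate block gave 79 higher and 85 lower and changed no call of miR-203-3p (adjusted p = 0.0675); the labels do not say that a number marks a shared litter or day, and same-numbered libraries did not deviate together (r = -0.06 over 457 miRNAs). Signs also turned, with no scaling, for miR-34c-5p (0.21), miR-7a-5p (1.5), miR-7b-5p (1.57) and miR-122-5p (1.10); with no filter for miR-7a-5p (0.0112) and miR-7b-5p (0.0537); and for miR-7b-5p with total counts alone (0.0245) and without GFP-AGO2 replicate 3 (0.0259; -0.451 without GFP-AGO2 replicate 1). These readings of names that are not members were chosen after the data were seen, and the cause of the differences was not tested. The planned arm ratios of miR-375 and miR-184 gave no value, since their 5p arms had 0 counts. Depth limits miR-205-5p, with 6 to 12 counts in each library, and the undetected 5p arms.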
